A study of Drosophila melanogaster with 4 samples.

Results

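Short gaps between neighbouring H3K79me1 domains that recur in both ChIP replicates are the subject here. Each was found as the 1 to 1500 bp between consecutive enriched regions of replicate 1 on arms 2L, 3L, 3R and X, and was kept where such a gap of replicate 2 overlapped it by at least 1 bp. There were 612 of them among 1740 gaps of that length in replicate 1, which is 35.2% (95% Wilson interval 33.0% to 37.4%). Replicate 1 had 4337 pairs of consecutive regions on these arms, and no other arm, such as 2R, was examined. The 612 are called partnered gaps below, and the other 1128 are called unpartnered. The members were chosen by the deposited starts and ends of the regions in both replicates, so this share is a description and not a finding.

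The chromatin came from Drosophila melanogaster embryos of the Oregon-R strain, genotype wild type, aged 14 to 16 h, a late embryonic stage, and all groups shared this strain, genotype and age. ChIP-seq gave 4 libraries, 2 from immunoprecipitation of H3K79me1 and 2 from input chromatin, for which no list of regions was used. The material was whole embryos fixed with formaldehyde, so every region is an average over many cell types, and no expression values were at hand to check the stage. The authors deposited 1 list of enriched regions for each ChIP replicate and 1 for the replicate set. Read counts are not part of these lists, and sequencing depth is therefore unknown.

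Monomethylation of lysine 79, which sits on the nucleosome surface of histone H3 rather than in its tail, is placed by enzymes of the DOT1 family, whose fly member is grappa. Methylation of this lysine is known from the bodies of transcribed genes, where it can run over many nucleosomes and form domains. The antibody reads the mark only where a histone H3 is present to carry it, and the lists show only whether a stretch was called as enriched. Positions are in FlyBase release 5. Gene positions of that release were not used here, so gaps are given by arm, start and end and not by gene, and no sequence is printed.

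Short breaks were a regular part of the H3K79me1 landscape in each list. Replicate 1 had 17.8 gaps of 1 to 1500 bp per Mb and replicate 2 had 15.7, a mean of 16.7 ± 1.47 (SD, n = 2), over 97.9 Mb. They made up 40.1% of all intervals between consecutive regions in replicate 1 and 38.4% in replicate 2. Such a gap bordered 2727 of 4341 regions (62.8%) in replicate 1 and 2430 of 4000 (60.8%) in replicate 2. Most domains therefore had a close neighbour. The gaps were short on average, with a median of 499 bp in replicate 1 and 523.5 bp in replicate 2 (511.25 ± 17.3, SD, n = 2). Very short gaps were common, and 223 of replicate 1 and 196 of replicate 2 were at most 100 bp long.

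What replicate 2 held at each gap of replicate 1 fell into 3 classes. At the 612 partnered gaps it also had a gap of at most 1500 bp, and each partnered gap overlapped exactly 1 such gap. At 816 gaps (46.9%) it was enriched throughout, so the break was present in replicate 1 alone. At the remaining 312 (17.9%) a gap longer than 1500 bp overlapped the break, so replicate 2 too lacked a call over at least part of it. The overlap was not always complete, and replicate 2 had a region at the centre of 11.2% of these gaps. An unpartnered gap was thus not always a break that replicate 2 closed: 72.3% of the unpartnered gaps were closed and the others overlapped a longer gap. Read from the side of replicate 2, the 612 were 39.8% of its 1536 gaps. A further 439 (28.6%) lay in sequence that replicate 1 covered, and 485 (31.6%) lay at a longer gap of replicate 1.

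Partnered gaps were longer than unpartnered ones. Their lengths in replicate 1 ran from 6 to 1500 bp with a median of 681 bp (middle range, 25th to 75th percentile, 365.5 to 1048.75 bp), against a median of 401.5 bp (162.25 to 844 bp) for unpartnered gaps. The rule bears on this difference, since a longer gap meets a partner more easily. Among the unpartnered gaps, those covered throughout in replicate 2 were the shortest, with a median of 302.5 bp, and those at a longer gap of replicate 2 had a median of 760 bp. Of the 307 gaps of 1 to 150 bp, 42 (13.7%) had a partner and 237 (77.2%) were covered in replicate 2. The share with a partner was 25.7% at 151 to 300 bp and 38.6% at 301 to 450 bp. Above that it showed no steady rise, and ranged from 37.7% to 53.1% over the longer bins of 150 bp, with overlapping intervals between neighbouring bins. At the longest lengths, 1351 to 1500 bp, 48 of 116 gaps (41.4%) had a partner and 39 (33.6%) lay at a longer gap of replicate 2, a class that the limit of 1500 bp creates.

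**Figure D1:**
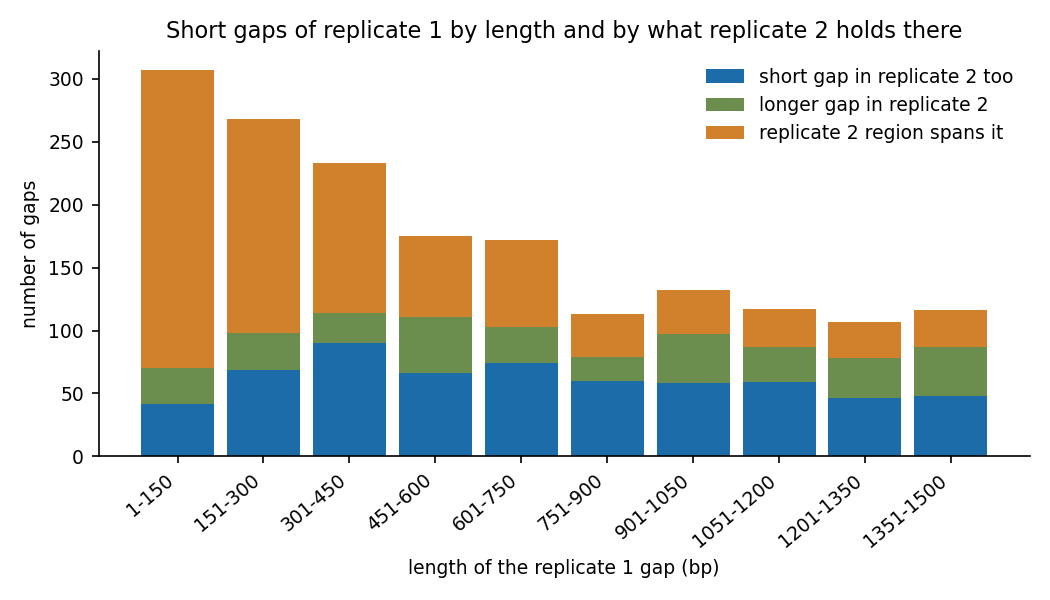
Number of replicate 1 gaps (vertical axis) in bins of 150 bp of gap length (horizontal axis), coloured by what replicate 2 holds at the gap. The shortest gaps are mostly covered in replicate 2 (237 of 307 at 1 to 150 bp), and the number of partnered gaps per bin stays between 42 and 90.

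By the median of the narrower flank, the domains beside partnered gaps were wider than those beside unpartnered gaps in each replicate. The rule bears on this too, since a partner needs a replicate 2 region on each side of the break. The narrower of the 2 flanking regions had a median width of 3422.5 bp in replicate 1 (2211.25 to 5540.5 bp) and 3835 bp in replicate 2, and the wider had medians of 8607 and 9911.5 bp. Beside unpartnered gaps of replicate 1 the narrower flank had a median of 2309.5 bp and the wider one 6508 bp. All regions on these arms had a median width of 4218 bp in replicate 1 and 4643.5 bp in replicate 2. Gaps covered in replicate 2 had a median narrower flank of 2659 bp, and gaps at a longer replicate 2 gap had one of 1852.5 bp, close to the 1301 bp of the narrowest region. The share of gaps with a flank under 2000 bp was 18.8% among partnered gaps, 31.9% among those covered in replicate 2 and 55.1% among those at a longer gap of replicate 2. A partnered gap with its flanks spanned a median of 13.2 kb in replicate 1 and 15.0 kb in replicate 2. The flanks were unequal to a like degree in both classes, the wider being 2.11 times the narrower at the median of partnered gaps and 2.12 times at that of unpartnered ones. The left flank was the wider at 317 of 612 partnered gaps (51.8%).

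**Figure D2:**
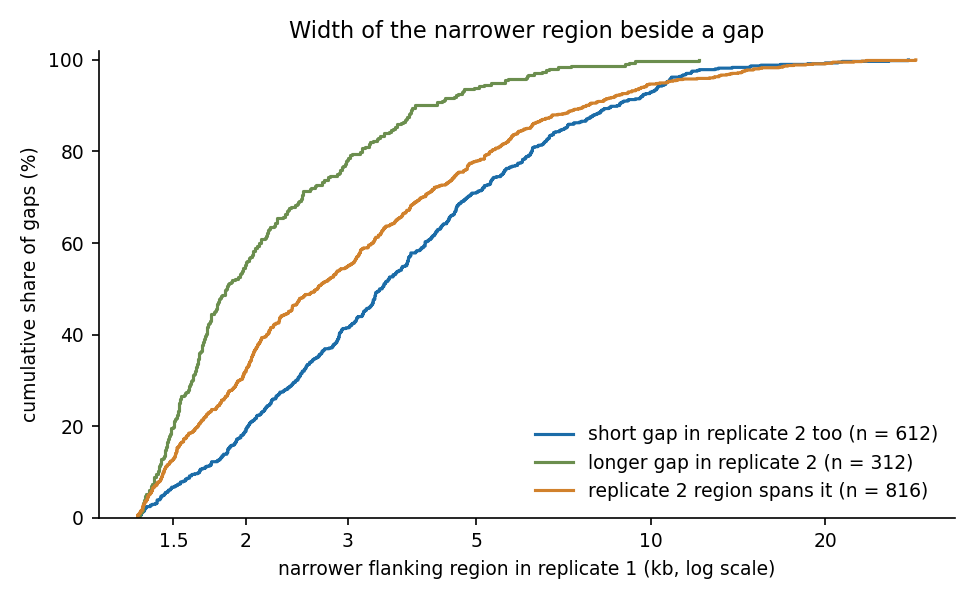
Cumulative share of replicate 1 gaps (vertical axis) by the width of the narrower flanking region in replicate 1 (horizontal axis, kb, log scale). The curve of the partnered gaps lies to the right of the others over most of its course, with a median of 3422.5 bp, and that of gaps at a longer gap of replicate 2 lies farthest to the left, with 1852.5 bp.

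Wider flanks went with a higher share of partnered gaps within each class of gap length. Among gaps of 1 to 500 bp, the share with a partner was 13.9% where the narrower flank was at most 2000 bp, 29.7% where it was 2001 to 5000 bp and 32.2% where it was wider. Among gaps of 501 to 1000 bp the shares were 22.5%, 51.8% and 60.6%. Among gaps of 1001 to 1500 bp they were 33.1%, 45.3% and 70.0%, the last being 49 of 70 gaps (interval 58.5% to 79.5%). Intervals overlapped at the step from the middle to the widest flanks for gaps of 1 to 500 bp and 501 to 1000 bp. For gaps of 1001 to 1500 bp they overlapped at the step from the narrowest to the middle flanks. Of these combinations of length and flank, long gaps between wide domains had a partner most often. Gaps at a longer gap of replicate 2 made up 39.0% of the gaps of 1001 to 1500 bp with the narrowest flanks and 10.0% of those with the widest.

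The flanking domains of partnered gaps also ranked higher by the authors' score, which is the authors' own value for each region and was used only as a percentile within its list. The mean percentile of both flanks had a median of 62.8 for partnered gaps and 42.8 for unpartnered gaps. Both flanks lay above the median score of the list at 292 of 612 partnered gaps (47.7%) and at 232 of 1128 unpartnered gaps (20.6%). At 232 of the 612 (37.9%) this held in both replicates. Within classes of the narrower flank the order was the same, with medians of 31.6 against 24.6 at 2000 bp or less, 50.0 against 42.0 at 2001 to 3000 bp, 68.4 against 54.9 at 3001 to 5000 bp, 79.2 against 66.6 at 5001 to 10000 bp and 85.3 against 69.6 above that (partnered against unpartnered).

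Partnered gaps overlap between the replicates because the rule requires it, but the replicates seldom drew them alike. The sequence common to both gaps had a median length of 348 bp (142.5 to 649.5 bp), which was 70.1% of the replicate 1 gap and 82.5% of the replicate 2 gap at the median. One gap lay wholly inside the other in 294 cases, 182 with the replicate 2 gap inside and 112 with the replicate 1 gap inside, and 318 pairs were staggered. The common part was nonetheless a median of 99.0% of the shorter gap of a pair (82.3% to 100%). The starts differed by a median of 155 bp and the ends by 157 bp. Both edges agreed to within 100 bp at 71 gaps (11.6%) and to within 50 bp at 14. The overlap was slight at some members, with under 10 bp in common at 15 gaps and under 100 bp at 112 (18.3%). A common part of at least 50% of each gap was present at 300 gaps (49.0%). Replicate 2 gaps were shorter than their partners at 357 of 612 gaps, with a median length of 565.5 bp. Across the 612 pairs, gap lengths had a Spearman rho of 0.357 and the widths of the narrower flanks one of 0.707; the pairs are neighbours within 2 libraries and both lengths are bounded by 1500 bp, so these values only describe the lists.

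The 3 gaps whose edges differed least in bp were short. The ranking bears on this, since short gaps that overlap leave less room for their edges to differ. On 2L, replicate 1 had a gap from 8366280 to 8366584 (305 bp) and replicate 2 had one from 8366276 to 8366581 (306 bp), edges that differ by 4 and 3 bp. On 3L, gaps from 6192771 to 6192911 (141 bp) and from 6192764 to 6192896 (133 bp) differed by 7 and 15 bp. Also on 3L, gaps from 17793770 to 17793931 (162 bp) and from 17793777 to 17793950 (174 bp) differed by 7 and 19 bp. At each of the 3, a region under 2.00 kb stood beside the gap in replicate 1 (1.99, 1.87 and 1.79 kb), and its score was at percentile 4.18, 2.84 and 6.68 of the list, while the region on the other side was at percentile 82.2, 93.9 and 88.3. In replicate 2 the region on that narrower side was 5.66, 2.05 and 1.44 kb wide, at percentile 22.0, 11.4 and 14.8. The other side was at percentile 56.0, 79.3 and 75.7 there. The 2L gap was kept open in the replicate set from 8366311 to 8366491, and the other gaps were closed there.

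The 3 longest partnered gaps differed in how far the replicates agreed. The 1500-bp gap on 3L, from 11384492 to 11385991, overlapped a replicate 2 gap of only 173 bp (11385001 to 11385173), and the replicate set covered all of it. The 1497-bp gap on 3R, from 1437036 to 1438532, met one of 524 bp (1437885 to 1438408) between flanks of 10.5 and 10.7 kb in replicate 1 and 11.6 and 11.8 kb in replicate 2. The 1495-bp gap on X, from 11515165 to 11516659, had nearly the same extent in replicate 2 (11515238 to 11516667, 1430 bp), and the replicate set left 1147 bp of it open. The first of these lay between regions of 1.80 and 3.39 kb with scores at percentiles 17.7 and 27.3, and the X gap between regions of 4.19 and 11.6 kb at percentiles 68.5 and 71.8.

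Both flanks were at least 10 kb wide in replicate 1 at 43 partnered gaps (7.03%), at 44 unpartnered gaps (3.90%) and so at 5.00% of all short gaps. In both replicates they were that wide at 29 of the 612 (4.74%). The 3 gaps with the widest narrower flank over both replicates illustrate the range. On 2L, a gap of only 60 bp (5271654 to 5271713) separated regions of 33.95 and 27.9 kb in replicate 1, replicate 2 had a gap of 151 bp (5271683 to 5271833) between 34.1 and 33.8 kb, and the replicate set joined them. On 3R, a gap of 1271 bp (7774122 to 7775392) separated 54.9 and 25.8 kb, replicate 2 had one of 1051 bp (7774370 to 7775420) between 49.4 and 26.0 kb, and the replicate set kept 903 bp open. Also on 3R, a gap of 620 bp (7451330 to 7451949) separated 44.1 and 21.4 kb, replicate 2 had one of 386 bp (7451426 to 7451811), and the replicate set kept 291 bp open. These 3 gaps between wide domains thus differed greatly in length. That each overlaps a replicate 2 gap follows from the rule, and the 2L pair had only 31 bp in common.

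Like 74.3% of partnered gaps, the partnered gap with the highest replicate 1 flank scores on each arm was kept open in the replicate set. On 2L it ran from 2934253 to 2934501 (249 bp in replicate 1, 281 bp in replicate 2) between regions of 45.2 and 18.7 kb at score percentiles 99.0 and 98.6. On 3L it ran from 356377 to 357464 (1088 and 1106 bp) between regions of 8.00 and 8.12 kb, with edges that differed by 12 and 30 bp. On X it ran from 19154837 to 19156304 (1468 and 946 bp) between regions of 8.99 and 10.4 kb. On 3R it ran from 24637209 to 24637671 (463 bp), where replicate 2 had a gap of 1020 bp from 24636605 to 24637624. The replicate set left 131, 869, 901 and 393 bp of these replicate 1 gaps open on 2L, 3L, X and 3R. In replicate 2 the left and right flanks were at score percentiles 99.8 and 97.5 on 2L and 80.1 and 96.2 on 3L. They were at 85.6 and 74.0 on X and 81.3 and 98.0 on 3R.

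The replicate-set list, made from the same libraries, kept most partnered gaps open but narrowed them. A gap counts as kept open where at least 1 bp of it lies outside every replicate-set region. Of all 1740 short gaps of replicate 1, 39.8% were kept open by that measure. Of the 612 partnered gaps, 455 (74.3%, 95% Wilson interval 70.7% to 77.6%) were, and of the 1128 unpartnered gaps, 238 (21.1%, interval 18.8% to 23.6%). The 3 classes separated the unpartnered gaps further. Where replicate 2 covered the gap, 15 of 816 (1.84%, interval 1.12% to 3.01%) were kept open, and where it had a longer gap, 223 of 312 (71.5%, interval 66.2% to 76.2%). From the side of replicate 2, 452 of 612 partnered gaps (73.9%), 16 of 439 gaps that replicate 1 covered (3.64%) and 323 of 485 at longer replicate 1 gaps (66.6%) were kept open. A break thus stayed in the replicate set mostly where both replicates lacked a call. The replicate set is not independent of the replicates, so this comparison is a description.

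**Figure D3:**
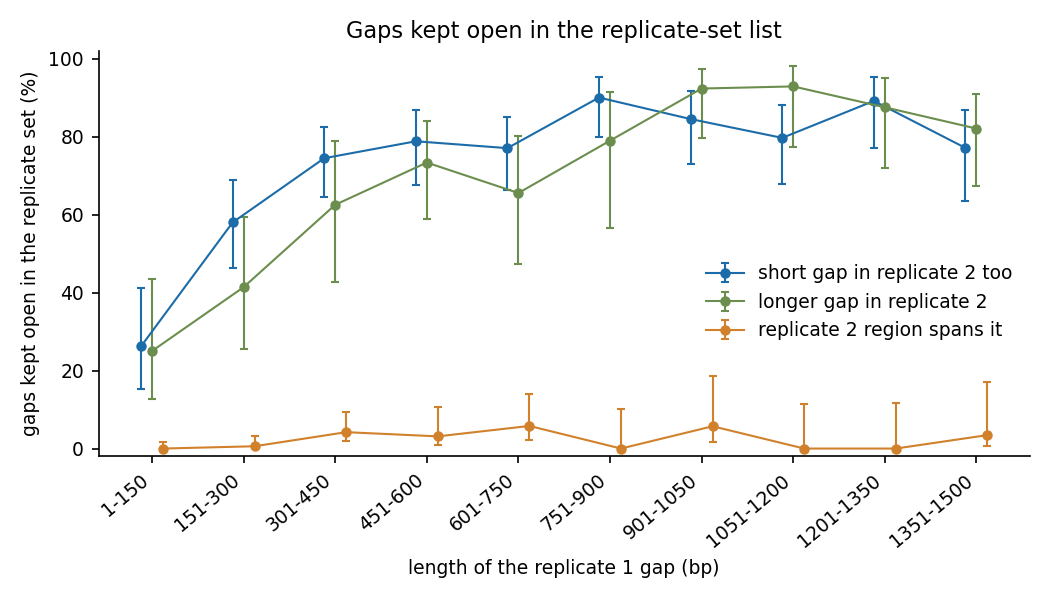
Share of replicate 1 gaps kept open in the replicate set (vertical axis, %, with 95% Wilson intervals) by gap length in bins of 150 bp (horizontal axis), by what replicate 2 holds at the gap. Partnered gaps rise from 26.2% at 1 to 150 bp to 74.4% at 301 to 450 bp and stay between 77.0% and 90.0% above that, while gaps covered in replicate 2 stay at or under 5.80% in every bin.

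The open part was smaller than the gap. At the 455 partnered gaps kept open, a median of 49.0% of the replicate 1 gap was open (25.3% to 73.0%), and each held a single replicate-set gap with a median length of 337 bp. That gap was shorter than both replicate gaps in 377 cases (82.9%). It had open sequence in the part common to both replicates in 445 of the 455 (97.8%) and lay wholly inside that part in 209 (45.9%). At least 50% of the gap was open at 223 of 612 partnered gaps (36.4%, against 21.9% of all 1740), and the whole gap at 13 (2.12%, against 2.07%). By the share wholly open, then, partnered gaps stood at the level of all gaps, which combines unlike classes. Of the gaps at a longer gap of replicate 2, 50.3% were at least 50% open and 7.37% wholly open, both above the partnered gaps. Of the gaps covered in replicate 2, the shares were 0.123% and 0%. Of the 435 kb in partnered gaps of replicate 1, 261 kb was also in the replicate 2 gap and 174 kb was open in the replicate set.

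The 157 partnered gaps that the replicate set closed were short and little shared. Their gaps had a median of 389 bp in the first replicate and 328 bp in the second, against 751 and 641 bp for those kept open, and the common part had a median of 130 bp against 438 bp. The share kept open was 38.9% where 1 to 100 bp were common (44 of 113), 69.9% at 101 to 250 bp, 81.1% at 251 to 500 bp, 90.8% at 501 to 1000 bp and 89.8% above that (44 of 49). Closed gaps also had narrower flanks, with a median narrower flank of 2830 bp against 3666 bp, and lower flank scores, with a median mean percentile of 52.6 against 65.2.

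**Figure D4:**
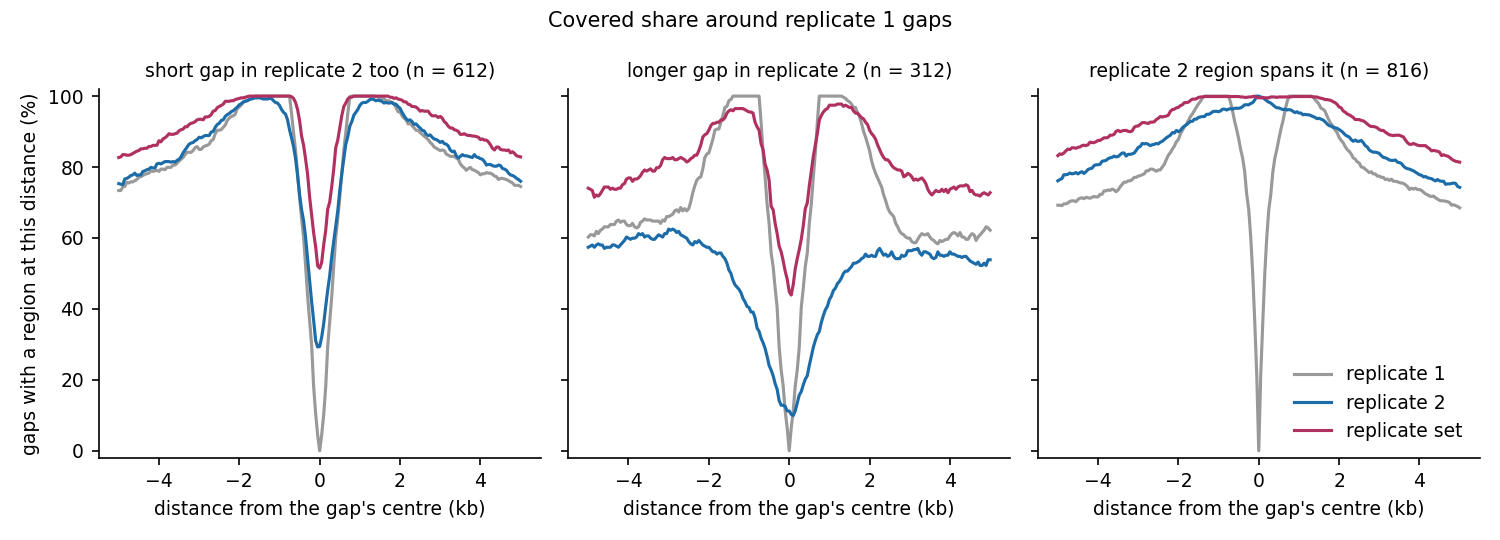
Percentage of gaps with an enriched region (vertical axis) at each distance from the centre of the replicate 1 gap (horizontal axis, kb), in steps of 50 bp, for the 3 classes and the 3 lists. At the centre of partnered gaps 29.4% have a replicate 2 region and 51.5% a replicate-set region, and 1 kb to either side 97.4% and 100% do. Where replicate 2 has a longer gap, its coverage is 40.4% and 42.6% at 1 kb to the left and right.

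Partnered gaps lay inside stretches that were enriched on both sides in each replicate, as the rule requires close to the gap. At 2 kb to the left and right of the centre of a partnered gap, 96.9% and 95.6% of positions lay in a replicate 1 region and 97.5% and 96.6% in a replicate 2 region. At 5 kb the shares were 73.4% and 74.5% in replicate 1 and 75.3% and 76.0% in replicate 2. Around gaps at a longer replicate 2 gap, replicate 2 covered 57.4% and 54.8% at 2 kb, less than around partnered gaps. Around gaps that replicate 2 covered, its regions held 90.0% and 90.6% of positions at 2 kb and 76.1% and 74.3% at 5 kb, the latter close to the shares around partnered gaps. Replicate 1 reaches 100% at 1 kb in all classes by construction, because a gap of at most 1500 bp lies between regions of at least 1301 bp.

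Partnered gaps were spread over the arms at uneven distances. Consecutive ones lay a median of 72.3 kb apart (20.6 to 217 kb), with 90 of 608 distances (14.8%) at most 10 kb and 36 (5.92%) over 500 kb. The longest distance, on 2L, was 1586 kb. The nearest short gap of any class in replicate 1 was a median of 8343 bp away for partnered gaps and 6566 bp for unpartnered ones. This distance takes the closer side among all 1740 short gaps, so it cannot exceed that to the next partnered gap. Within classes of the narrower flank the order varied. Medians were 3949.5 against 3495.25 bp at 2000 bp or less and 5769.25 against 3937.5 bp at 2001 to 3000 bp (partnered against unpartnered). They were 6128.5 against 5533.5 bp at 3001 to 5000 bp and 10119.5 against 10438.5 bp at 5001 to 10000 bp. Above that they were 20744.5 against 20110 bp. A flanking region was shared with another partnered gap at 194 of 612 partnered gaps (31.7%), and with any short gap at 402 (65.7%). For unpartnered gaps, 269 of 1128 (23.8%) shared a flanking region with a partnered gap and 763 (67.6%) with any short gap. In windows of 1 Mb, the number of partnered gaps ranged from 1 to 15 with a median of 6 over the 96 full windows, none of which lacked one. The partial windows at the arm ends were left out of this count; that of 3R (0.905 Mb) held 7 partnered gaps, and those of 2L (0.0115 Mb), 3L (0.544 Mb) and X (0.423 Mb) held 0. The highest count, 15, was reached on X from 11000001 to 12000000 and from 16000001 to 17000000, windows named after their counts were seen.

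Most partnered gaps stood alone, but some followed one another along neighbouring domains. That the gaps of such a run overlap between the replicates follows from the rule. There were 418 single gaps, 72 runs of 2, 14 runs of 3 and 2 runs of 4 in which consecutive partnered gaps shared a flanking region. The run on 3R spanned 59.1 kb with its flanks, from 25816886 to 25875954, and its gaps were 463, 388, 641 and 337 bp long in replicate 1 and 445, 295, 942 and 860 bp in replicate 2. All 4 of its gaps were kept open in the replicate set, over 305, 189, 641 and 331 bp. The run on X spanned 44.1 kb, from 504416 to 548554, with gaps of 813, 746, 99 and 142 bp in replicate 1 and 639, 804, 375 and 9 bp in replicate 2. There the replicate set kept 471, 573 and 28 bp of the first 3 open and closed the last. In both runs the gaps were consecutive in replicate 2 as well.

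**Figure D5:**
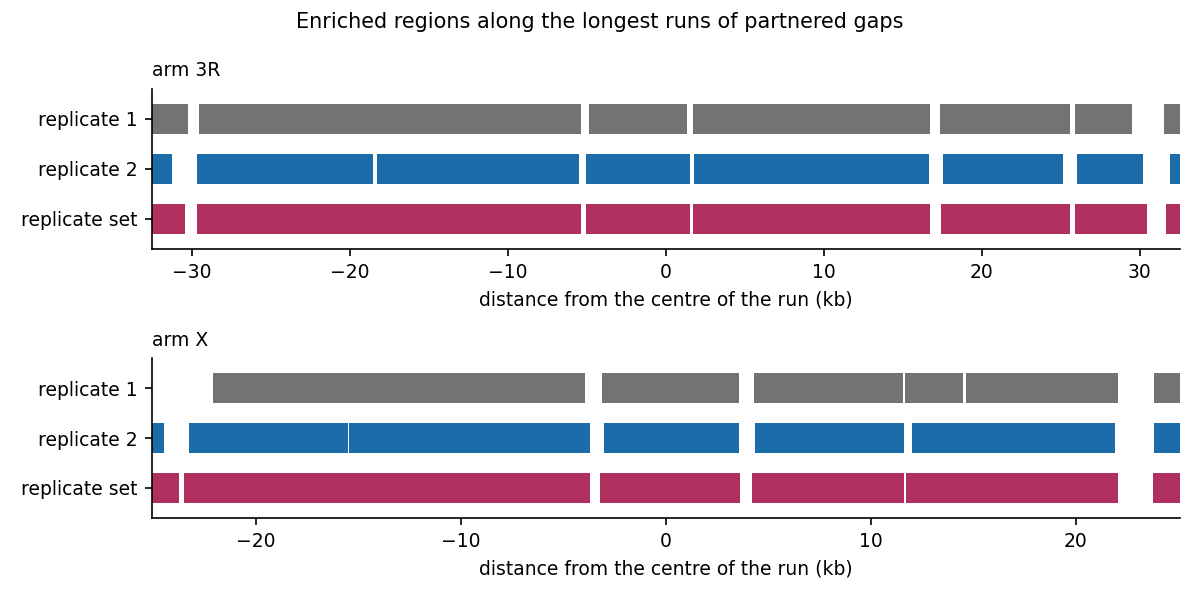
Enriched regions (bars) of replicate 1, replicate 2 and the replicate set along the 2 longest runs of partnered gaps, on 3R and X, by distance from the centre of the run (kb). All 4 breaks on 3R line up in the 3 lists; on X the replicate 2 gap of 9 bp at the last break is too short to be seen at this scale and the replicate set closes it.

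Of the 4 arms examined, X had the most partnered gaps per Mb. The order of the arms by the share of short gaps with a partner, however, depended on the base replicate. Partnered gaps numbered 125 on 2L, 153 on 3L, 158 on 3R and 176 on X. Per Mb there were 5.43 on 2L, 6.23 on 3L, 5.66 on 3R and 7.85 on X. Of the short gaps of replicate 1, 39.8% had a partner on X (interval 35.4% to 44.5%), against 33.7% on 2L, 34.2% on 3R and 32.9% on 3L (interval 28.8% to 37.3%). Of the short gaps of replicate 2, 41.3% had one on X and 41.6% on 3R, so X was not the highest from that side. X also had the most short gaps per Mb in each replicate, 19.7 and 19.0, against 16.1 to 18.9 and 13.6 to 16.7 on the other arms. Its partnered gaps had a median length of 686 bp, within the 654 to 745 bp of the other arms, and 77.3% of them were kept open, against 67.3% to 79.1%. Differences between arms were not tested.

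The limit of 1500 bp cuts through a continuous range of lengths. Of 68 replicate 1 gaps of 1401 to 1500 bp, just inside the limit, 30 overlapped a short gap of replicate 2, and 20 of these 30 were kept open. Of 65 gaps of 1501 to 1600 bp, just outside, 20 did so, and 17 of these were kept open. The nearest such gap outside the limit, on 2L from 10230862 to 10232363 (1502 bp), overlapped a replicate 2 gap of 473 bp, and the replicate set kept 553 bp of it open.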

How the data were processed

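The lists give regions of significant enrichment for H3K79me1 on FlyBase release 5, per the file headers, and Bowtie 0.12.7 is the aligner that the submitters' processing notes name. Not given in the sources used here are the caller, its threshold and the way the replicate set was made. The score of each region is the authors' deposited value on a scale the headers do not name. Depth is unknown, so the precision of a single region is too. Intervals (Wilson, 95%) treat gaps as independent and cover counting error only. Whether the replicates were separate embryo collections is not in the labels, so the SD between them may be technical.

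Coordinates were read as 1-based and inclusive, and a gap is the next start minus the previous end minus 1. Touching regions (2 pairs in each replicate) gave no gap. Gaps were matched with Python 3.11.15, numpy 2.4.6, pandas 2.3.3 and scipy 1.17.1, and the matching was tested on simulated data. The members and measures were chosen with earlier results of these data known. Because overlap chose the members and there are 2 libraries, no test was run. Named gaps follow a rule: the 3 with the widest narrower flank, the 3 longest, the 3 whose edges differ least, the longest runs, the highest mean flank score on each arm and those nearest to the limit. Alternatives changed the length limit, the overlap, the base replicate, the regions, the arms and the meaning of open. Gene annotation of release 5 was not used here.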

Additional observations from a re-analysis of the deposited data

How the results depend on the processing

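No paired analysis was possible because the input libraries, which share the replicate numbers with the ChIP libraries, have no list of regions here, and no result comes from a test. The gap pairs between the ChIP replicates were described only. Of 99 recomputed values, 61 moved by more than the spread between replicates or, for shares, outside the 95% interval. Part of this count was fixed in advance, because the replicates themselves set the spread. For medians, the change of base replicate had to count as moved. The settings without 1 replicate had to count as the same. The count is therefore no measure of how robust the results are. The setting with unpartnered gaps covered in replicate 2 was added after seeing the data. Partnered gaps had the higher median length, narrower flank and distance to the nearest gap in all 10 settings of each. They had the higher share kept open in all 12, though by only 0.0852 points where the whole gap had to be open. The difference in distance was smallest, 271 bp, with flanks of at least 2000 bp, and its order varied within classes of the narrower flank. Without 1 replicate, gaps per Mb were 15.7 to 17.8 and the median gap length 499 to 523.5 bp. The replicate set had a median gap of 469 bp. Depth is unknown, so how far it limits the finding of gaps cannot be said. With a limit of 1000 bp and of 2000 bp, in that order, gaps per Mb were 13.1 and 19.4, the median gap was 371 and 625 bp, the share with a partner was 27.0% and 40.5%, median lengths were 455.5 and 841 bp (partnered) and 316 and 457 bp (unpartnered), the unpartnered narrower flank was 2493 and 2247 bp, and nearest distances were 11240.5 and 6849 bp (partnered) and 10037 and 5280.75 bp (unpartnered). With the limit of 1000 bp, 69.1% of partnered gaps were kept open. With 50% of the replicate 1 gap overlapped and with reciprocal overlap, in that order, the share with a partner was 22.8% and 17.2%, the unpartnered flank 2465 and 2528 bp, and the share kept open 81.9% and 88.0% (partnered) and 27.4% and 29.8% (unpartnered). With reciprocal overlap the partnered median length was 809 bp. With replicate 2 as the base, the share with a partner was 39.8%, median lengths were 565.5 and 473 bp, flanks 3835 and 2346 bp and distances 9502.5 and 8057 bp (partnered, then unpartnered), and 36.7% of unpartnered gaps were kept open, while 485 of them, against 312 of replicate 1, lay at a longer gap of the other replicate. With the higher-scoring 50% of regions, the share with a partner was 44.3%, the unpartnered length 343.5 bp, flanks 6010 and 4830.5 bp, distances 29599.5 and 24755 bp, and shares kept open 81.9% and 29.5%. With flanks of at least 2000 bp the share with a partner was 37.8%, flanks were 4276 and 3419 bp, distances 10838.5 and 10567.5 bp, and 78.9% of partnered gaps were kept open. On X the share with a partner was 39.8%, flanks were 3781 and 2413.5 bp, and 26.7% of unpartnered gaps were kept open; on the autosomal arms the unpartnered flank was 2250.5 bp. With open meaning at least 50% of the gap, 36.4% and 14.0% were kept open, and with the whole gap, 2.12% and 2.04%. Among unpartnered gaps covered in replicate 2, the median length was 302.5 bp, the flank 2659 bp and the share kept open 1.84%. The causes of these shifts were not tested.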
